A study of Mus musculus with 78 samples.

Results

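Intermittent fasting was compared with free feeding in the cerebral arteries of sham-operated mice, 7 days after the sham surgery. The fasted group held 3 libraries (sham IF day 7) and the freely fed group 4 (sham AL day 7), chosen by their treatment labels out of 78 libraries in all. The mice were male, wild-type C57Bl6, and had fasted intermittently (IF) or eaten ad libitum (AL) for 3 months before surgery. All 7 libraries came from animals that had a sham operation, the control for bilateral carotid artery stenosis (abbreviated BCAS in the labels), a narrowing of the common carotid arteries that reduces cerebral blood flow. The other libraries covered both diets after sham or BCAS surgery on days 1, 7, 14, 21 and 30. The sources used here do not give the animals' age, how fasting was scheduled or the hour at which arteries were taken, and day 7 stands in the treatment labels but not among the days that the treatment protocol lists. A cerebral artery sample is whole tissue, so fewer cells of a type and less RNA per cell cannot be told apart.

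Intermittent fasting shifts when an animal eats and lowers its intake for part of the day. Feeding time is a strong cue for the circadian clocks of peripheral tissues, including blood vessels. In the clock, the activators Arntl (also called Bmal1) with Clock or Npas2 switch on their own repressors of the Per, Cry and Nr1d families, and the output factors Dbp and Tef are opposed by the repressor Nfil3. Heat shock proteins are chaperones induced by Hsf1 when proteins unfold, and their level also follows body temperature. The cold-inducible RNA-binding proteins Cirbp and Rbm3 are known to rise when temperature drops.

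Expression was given as FPKM (fragments relative to gene length in kilobases and to a scaling total per library) in 1 table of 54532 genes. That total was 0.958 to 1.05 times the fragments recovered from the values in sham IF and 1.01 to 1.12 times in sham AL. The ratio of sham AL replicate 4, 1.12, was the highest of all 78 libraries. The 7 libraries held 14601572 to 22358105 fragments, against 15449245 to 25944175 in the other 71. Genes shorter than 300 bases took 0.0565%, 0.0683% and 0.0643% of fragments in the 3 sham IF libraries, against 0.0960%, 0.282%, 0.0878% and 0.322% in sham AL replicates 1 to 4. All 4 sham AL libraries stood above all 3 sham IF libraries in that share, and replicates 2 and 4 stood furthest apart. Sham AL replicate 4 also had the lowest median correlation with the other libraries, 0.939, where the 71 others lay between 0.968 and 0.985, and it had 13449 genes with at least 1 FPKM against 12586 to 13366 in those 71. Its summed level of 14 smooth muscle genes was 3704 FPKM, against 9340 to 9879 FPKM in the other 3 sham AL libraries and 6791 to 10981 FPKM in sham IF. The 71 other libraries lay between 5711 and 14403 FPKM, so these markers of an artery wall were lower in sham AL replicate 4 than in any other library. Every comparison was therefore made with all 7 libraries and again without sham AL replicates 2 and 4, and values of sham AL are listed in replicate order.

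A gene was called when limma, fitted to log2(FPKM + 1) of all 78 libraries with 1 mean per group, gave an adjusted p under 0.05. Of 15707 genes tested, 1422 (9.05%) differed between sham IF and sham AL on day 7, 753 higher in IF (4.79%) and 669 lower (4.26%). Without sham AL replicates 2 and 4 the count fell to 308 (1.96%), with 133 higher (0.847%) and 175 lower (1.11%). Both fits called 233 genes (1.48%), 112 higher and 121 lower, and of these 74 differed at least 1.5-fold and 21 at least 2-fold on the log2(FPKM + 1) scale. In 184 of the 233 genes the 3 sham IF values did not overlap the 4 sham AL values, which held for 1396 of all genes tested (8.89%). The main count was 2997 without sham IF replicate 1, 2625 without sham AL replicate 1, 574 without sham AL replicate 4, 440 without sham IF replicate 2 and 265 without sham IF replicate 3. The count called in both fits was 470 without sham IF replicate 1, 118 without sham IF replicate 2 and 86 without sham IF replicate 3. In these the second fit compared 2 libraries with 2. No such count is given without sham AL replicate 1 or 3, because the second fit then held 1 sham AL library. Of the 233 genes, 120 were also called in the fit of all 7 libraries whichever single library was left out of it. The split between higher and lower depended on scaling. When FPKM was rescaled without short and mitochondrial genes, 510 genes were higher and 1121 lower, and limma-voom on fragments recovered from the FPKM values gave 398 higher and 959 lower. A fit of the 7 libraries alone called 1 gene, Dbp, with an adjusted p of 0.0318, while 1238 genes had an unadjusted p under 0.05 in it, so the larger counts rest on the spread estimated over all 78 libraries. The plot of the difference with and without the 2 libraries shows which genes kept their size.

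**Figure D1:**
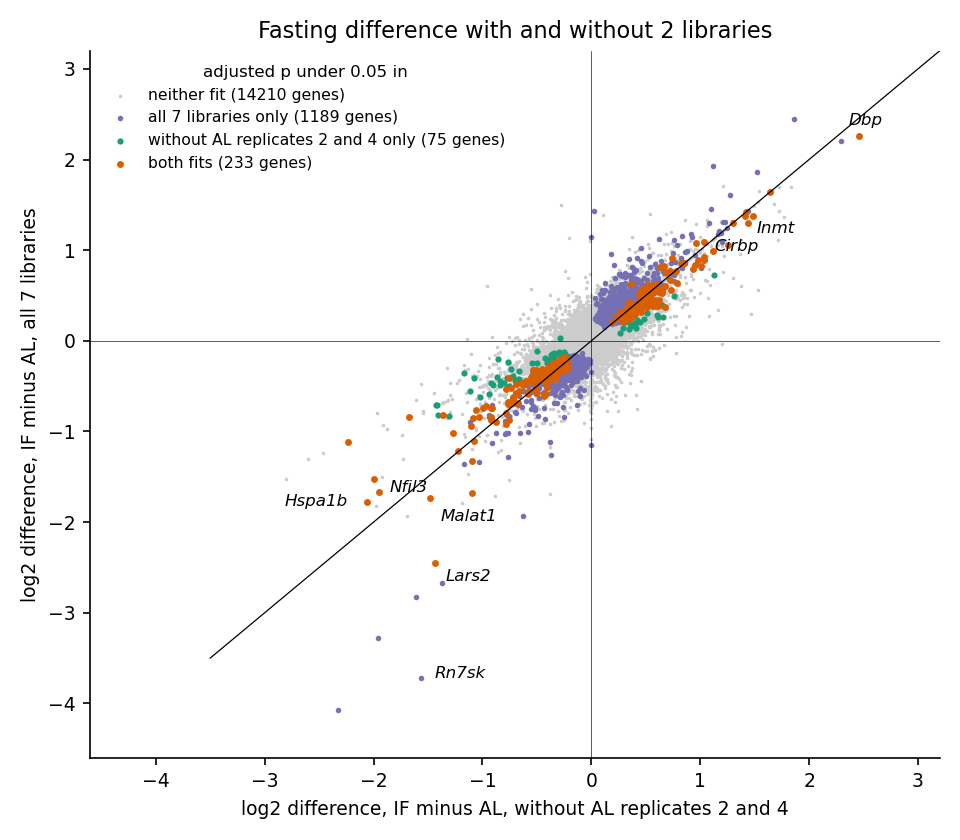
Log2 difference (sham IF minus sham AL, day 7) of each tested gene with all 7 libraries (vertical axis) and without sham AL replicates 2 and 4 (horizontal axis), coloured by the fit in which the adjusted p was under 0.05. Dbp, Inmt and Cirbp lie near the diagonal, while Rn7sk and Lars2 lie below it, since their difference shrank without the 2 libraries.

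Clock genes stood out among those that both fits called. Fasted arteries had more Dbp, Tef, Nr1d1, Nr1d2, Per3, Cry2, Usp2 and Bhlhe41 RNA and less Nfil3, Arntl and Npas2. Of 20 clock genes, all tested, 9 were higher and 4 lower with all 7 libraries (65% called, against 9.05% of all genes). Without sham AL replicates 2 and 4, 8 were higher and 3 lower, where 1.96% of all genes were called. Both fits called 11 of the 20, against 1.48% of all genes. The median log2 difference of the list was 0.57 and 0.47 in the 2 fits, against 0.01 and 0.00 over all genes tested. Promoter sequence from RefSeq (GRCm38.p6) is shown here for 4 members described below, one or more for each clock element, with the matched letters in capitals. E-boxes (CACGTG), which Arntl with Clock or Npas2 bind, D-boxes (TTANGTAA), which Dbp, Tef and Nfil3 share, and ROR elements (an A-rich stretch before AGGTCA), which the Nr1d factors bind, were searched on both strands, from 250 bases before to 50 after each start.
Ciart, chr3:95882229-95882378, minus strand, E-box: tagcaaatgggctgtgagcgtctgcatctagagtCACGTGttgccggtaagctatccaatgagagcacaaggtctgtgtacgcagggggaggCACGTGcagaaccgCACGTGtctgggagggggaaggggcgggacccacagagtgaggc
Tef, chr15:81802523-81802672, plus strand, E-box: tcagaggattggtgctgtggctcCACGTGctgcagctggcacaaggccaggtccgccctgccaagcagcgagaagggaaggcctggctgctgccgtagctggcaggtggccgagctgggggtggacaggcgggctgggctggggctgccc
Per3, chr4:151044666-151044885, minus strand, D-box: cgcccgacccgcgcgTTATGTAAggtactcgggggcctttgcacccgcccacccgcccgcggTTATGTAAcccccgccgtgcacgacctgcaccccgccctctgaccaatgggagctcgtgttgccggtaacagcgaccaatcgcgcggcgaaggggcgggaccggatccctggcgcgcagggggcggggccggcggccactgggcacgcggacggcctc
Arntl, chr7:113207531-113207560, plus strand, ROR element: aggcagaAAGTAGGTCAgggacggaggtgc
The Ciart stretch holds 3 E-boxes, the Tef stretch 1, the Per3 stretch 2 D-boxes and the Arntl stretch 1 ROR element. An E-box stood in the windows of 5 of the 17 clock genes with a window (Per1, Cry1, Ciart, Tef and Bhlhe41), in 11.5% of the 10250 tested genes with a window, and in 7.15% of all 32851 promoter windows. The D-box stood in 1 of the 17, in 1.76% of those tested genes and in 2.32% of all windows. The ROR element stood in 1 of the 17, in 0.166% of the tested genes and in 0.219% of all windows. A match describes letters, not binding, and the Dbp window held no match to the E-box or the D-box.

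Dbp, an output factor that binds D-boxes and is among the most rhythmic transcripts of peripheral tissues, had 46.1, 44.1 and 48.6 FPKM in sham IF libraries and 9.45, 9.77, 6.03 and 11.1 FPKM in sham AL libraries. The groups did not overlap, and the lowest fasted library was above the highest fed one by a wide margin. The log2 difference was 2.26 ± 0.28 (SE), 4.78-fold higher in IF on that scale, with an adjusted p of 1.81e-07 in limma, and 2.46 without sham AL replicates 2 and 4. Tef, of the same family, averaged 32.6 ± 1.32 FPKM in sham IF (SD, n = 3) and 18.6 ± 3.85 FPKM in sham AL (SD, n = 4), a log2 difference of 0.80 (adjusted p = 2.91e-05 in limma). Nfil3, which represses through the same D-boxes, had 3.36, 3.17 and 3.13 FPKM in sham IF and 15.98, 13.4, 14.7 and 7.55 FPKM in sham AL. Fasted arteries thus had less of the repressor in every library, and its log2 difference was -1.67 ± 0.19 with an adjusted p of 2.42e-08. Hlf, the third activator of this family, was near equal, 38.3 ± 5.03 FPKM in sham IF and 36.8 ± 4.57 FPKM in sham AL, with a log2 difference of 0.06 (adjusted p = 0.826).

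Among the activators, Arntl had 0.788, 1.13 and 1.28 FPKM in sham IF and 3.24, 3.37, 4.45 and 4.04 FPKM in sham AL, a log2 difference of -1.21 ± 0.16 (adjusted p = 6.27e-07 in limma). Npas2, the partner of Arntl that can stand in for Clock, had 0.337, 0.469 and 0.799 FPKM in sham IF and 1.69, 1.39, 2.85 and 3.60 FPKM in sham AL. Both genes were lower in every fasted library than in any fed one. Clock itself was lower in the fit of all 7 libraries only, by -0.34 (adjusted p = 0.00909), with an adjusted p of 0.242 without sham AL replicates 2 and 4, and its call also ended without sham IF replicate 2 or 3 or sham AL replicate 4. These genes lay at a few FPKM, where the log2(FPKM + 1) scale understates the difference.

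The repressor arm ran the other way. Nr1d1 and Nr1d2 encode the Rev-erb receptors, which repress Arntl. Nr1d2 had 30.9, 26.4 and 27.6 FPKM in sham IF and 15.1, 15.2, 11.7 and 17.7 FPKM in sham AL, a log2 difference of 0.89 ± 0.15 (adjusted p = 9.02e-05 in limma). Nr1d1 had 28.3, 40.5 and 58.2 FPKM in sham IF and 18.6, 17.6, 14.4 and 27.2 FPKM in sham AL, a log2 difference of 1.06 ± 0.27 (adjusted p = 0.0103), and its call ended without sham IF replicate 3 (adjusted p = 0.146). The groups of both genes did not overlap, by a narrow margin in Nr1d1. Per3, a period repressor, had 8.96, 8.07 and 6.97 FPKM in sham IF and 4.14, 3.77, 2.74 and 4.38 FPKM in sham AL, a log2 difference of 0.93 ± 0.13 (adjusted p = 1.11e-06). Cry2, a cryptochrome repressor, averaged 7.55 ± 0.833 FPKM in sham IF and 4.59 ± 0.257 FPKM in sham AL (0.61, adjusted p = 8.32e-05). Per1 and Per2 were above the threshold, at 0.68 (adjusted p = 0.0575) and 0.57 (adjusted p = 0.0503).

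Ciart, a repressor of the Arntl complex, had 5.27, 11.96 and 12.9 FPKM in sham IF and 4.00, 1.87, 2.72 and 1.54 FPKM in sham AL. Its log2 difference was 1.61 ± 0.31 with all 7 libraries (adjusted p = 0.000666 in limma) and 1.27 without sham AL replicates 2 and 4 (adjusted p = 0.0538). Usp2, a deubiquitinase under clock control, rose by 0.75 (adjusted p = 0.000487) and by 0.69 in the 2 fits (adjusted p = 0.0164 in the second). Bhlhe41, which represses E-box genes, rose by 0.57 (adjusted p = 0.00347), and its call ended without sham IF replicate 3 (adjusted p = 0.102).

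**Figure D2:**
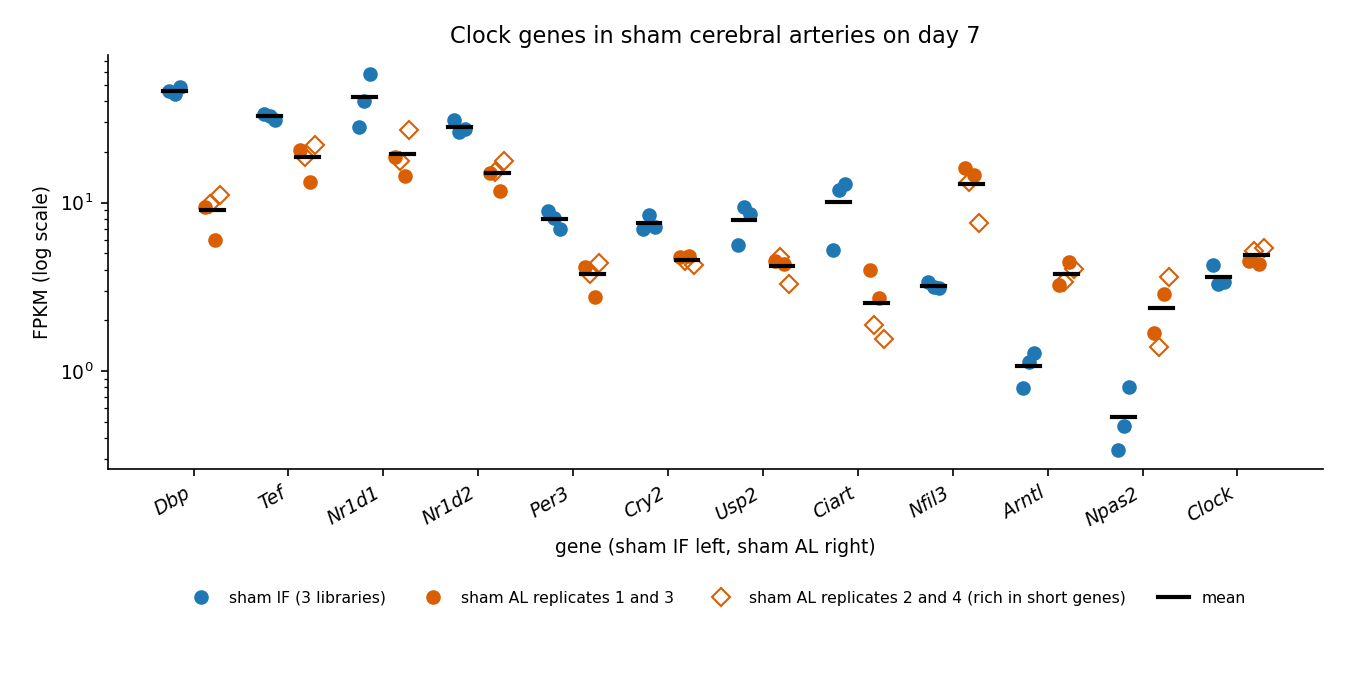
FPKM (log scale) of 12 clock genes in each sham library of day 7, with fasted libraries on the left of each pair and freely fed ones on the right; open diamonds are sham AL replicates 2 and 4 and bars are means. The fasted and fed values do not overlap in any of the 12 genes, with Dbp 46.3 against 9.08 FPKM on average and Nfil3 3.22 against 12.9 FPKM.

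Heat shock genes were lower in fasted arteries. Of 21 chaperones, cochaperones and their regulator Hsf1, 15 fell and none rose with all 7 libraries (71.4% called, against 9.05% of all genes). Without sham AL replicates 2 and 4, 14 fell and none rose, where 1.96% of all genes were called. The fits shared 13 of these genes, against 1.48% of all genes. The list's median log2 difference was -0.56 and -0.73 in the 2 fits, and 20 of the 21 values lay below 0 in the first. The count was 9 without sham IF replicate 2 and 8 without sham IF replicate 3, where 440 and 265 of all genes were called. It was 14 to 16 without any other single library. Start regions that hold a heat shock element are shown for 3 members, as alternating GAA and TTC units spaced by 2 bases on either strand, in capitals.
Hspd1, chr1:55087933-55088092, minus strand: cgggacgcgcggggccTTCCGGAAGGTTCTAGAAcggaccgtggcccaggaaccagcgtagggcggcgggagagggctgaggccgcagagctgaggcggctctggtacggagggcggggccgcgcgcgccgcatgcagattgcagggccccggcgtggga
Chordc1, chr9:18292259-18292288, plus strand: accgGAACGTTCGGGAAAATTCCTGAAgca
Hsph1, chr5:149636278-149636307, minus strand: ctgcagaTTCTGGAAAGTTCtcctcagtag
The Chordc1 and Hspd1 stretches hold overlapping matches, 3 and 2 of them. The element stood in the windows of 4 of the 16 members with a window (Hspe1 shares the Hspd1 site, since both genes start next to each other on opposite strands) in 0.585% of the tested genes with a window and in 0.603% of all windows.

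The inducible Hsp70 genes had the largest differences. Hspa1b had 9.54, 10.3 and 10.3 FPKM in sham IF and 66.3, 35.3, 30.7 and 25.3 FPKM in sham AL, a log2 difference of -1.77 ± 0.43 (adjusted p = 0.00643 in limma). Hspa1a had 8.03, 9.67 and 11.3 FPKM in sham IF and 60.7, 35.1, 27.7 and 12.5 FPKM in sham AL, a log2 difference of -1.53 ± 0.38 (adjusted p = 0.00730). The fasted libraries were tight in both and the fed ones spread widely, with no overlap. Hspa1a and Hspa1b are near-identical copies on chromosome 17, so how reads were split between them is uncertain. Hsph1, the Hsp110 partner that recharges Hsp70, had 15.8, 13.9 and 15.4 FPKM in sham IF and 37.4, 29.0, 38.2 and 23.6 FPKM in sham AL (-1.02, adjusted p = 0.000996). Hspa8, the constitutive Hsp70, averaged 299 ± 29.8 FPKM in sham IF and 506 ± 89.8 FPKM in sham AL (-0.74, adjusted p = 0.00136).

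The Hsp40 cochaperones, which hand clients to Hsp70, followed. Dnaja1 averaged 14.8 ± 3.44 FPKM in sham IF and 29.6 ± 7.33 FPKM in sham AL (log2 difference -0.93, adjusted p = 0.00103 in limma), and Dnajb4 fell by 0.69 (adjusted p = 0.000660). Dnajb1 had an adjusted p of 0.0152, lost without sham IF replicate 2 or 3 or sham AL replicate 2 (highest adjusted p = 0.106), and its groups overlapped. In the Hsp90 machine, which folds kinases and steroid receptors, Hsp90ab1 averaged 312 ± 14.8 FPKM in sham IF and 461 ± 37.99 FPKM in sham AL (-0.56, adjusted p = 0.00267). Its cochaperones Chordc1 (-0.84, adjusted p = 1.83e-05), Stip1 (-0.53, adjusted p = 0.0121) and Fkbp4 (-0.49, adjusted p = 0.0129) fell as well, and the calls of Stip1 and Fkbp4 ended without sham IF replicate 3, that of Fkbp4 also without sham IF replicate 2. Hsp90aa1 fell by 0.68 (adjusted p = 0.0102), a call that ended without sham IF replicate 2 or 3 (highest adjusted p = 0.120). The mitochondrial chaperonin Hspd1 fell by 0.33 (adjusted p = 0.0217), with the same 2 libraries ending the call. Hspb1, a small heat shock protein abundant in smooth muscle, had 563, 1034 and 852 FPKM in sham IF and 1370, 1027, 1332 and 526 FPKM in sham AL, with an adjusted p of 0.340. Its lowest value was in sham AL replicate 4, the library with little smooth muscle RNA.

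Cirbp moved the other way. It had 37.3, 58.5 and 61.1 FPKM in sham IF and 23.9, 18.9, 25.1 and 26.7 FPKM in sham AL, with no overlap, and a log2 difference of 1.09 ± 0.23 (adjusted p = 0.00145 in limma; 0.0280 without sham AL replicates 2 and 4). Rbm3 had 17.0, 16.1 and 14.9 FPKM in sham IF and 12.4, 13.4, 9.94 and 12.03 FPKM in sham AL, a log2 difference of 0.40 (adjusted p = 0.0674). Its values did not overlap either, but the gene did not pass the test.

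Endoplasmic reticulum stress genes, which encode folding and degradation factors of the secretory pathway, all had log2 differences below 0. Of 17, 4 fell with all 7 libraries (23.5%, against 9.05% of all genes called). Without sham AL replicates 2 and 4, 2 of the 17 fell, where 1.96% of all genes were called. The list medians were -0.34 and -0.37. As the mean of the other 4 days, 14 of the 17 were called lower, with a median of -0.36. Sdf2l1, an endoplasmic reticulum chaperone component, averaged 17.5 ± 2.89 FPKM in sham IF and 32.96 ± 8.67 FPKM in sham AL (-0.85, adjusted p = 0.0202 in limma). Xbp1, the transcription factor spliced by Ire1, averaged 54.3 ± 1.88 FPKM in sham IF and 70.8 ± 9.55 FPKM in sham AL (-0.37, adjusted p = 0.0298). Each of these calls ended without sham IF replicate 2 or 3 or sham AL replicate 3, and that of Sdf2l1 also without sham AL replicate 4 (highest adjusted p = 0.135 for Sdf2l1 and 0.138 for Xbp1). No member was called without sham IF replicate 2 or 3. Edem1 and Calr were called with all 7 libraries only, and Hspa5, the chaperone BiP, had an adjusted p of 0.0996.

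**Figure D3:**
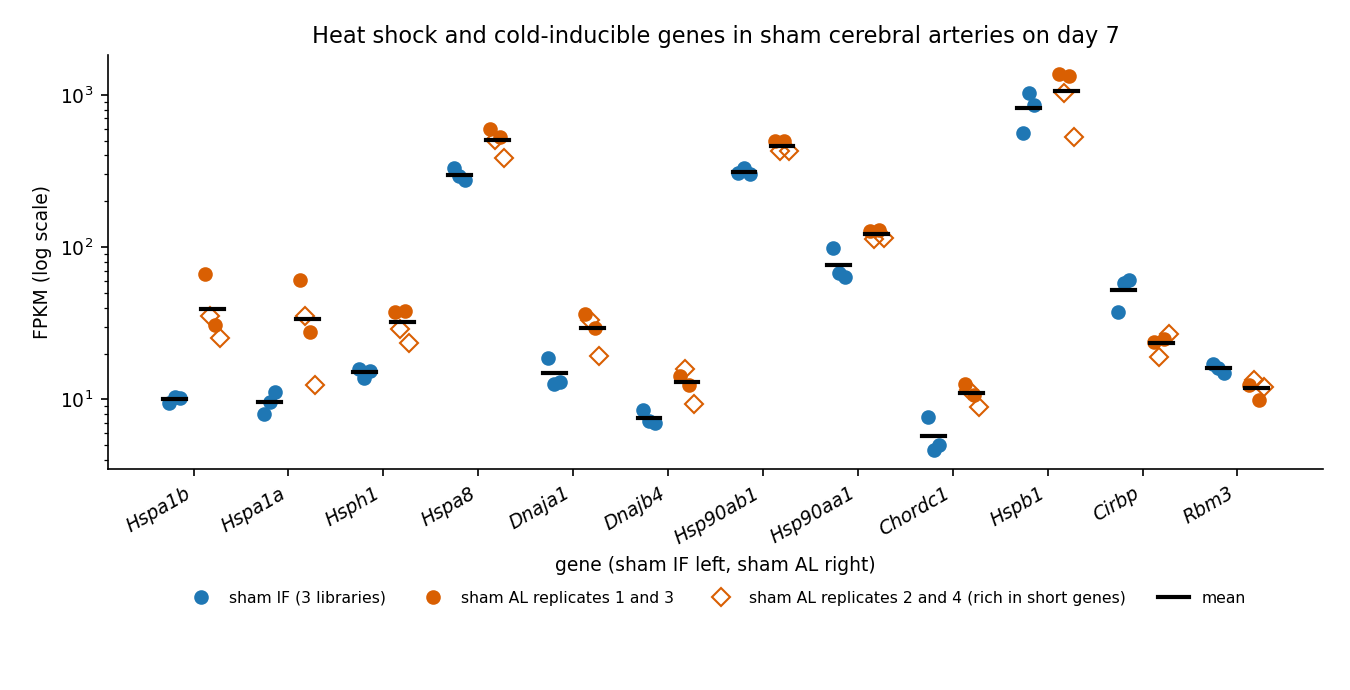
FPKM (log scale) of 10 heat shock genes and the cold-inducible Cirbp and Rbm3 in each sham library of day 7, with fasted libraries on the left of each pair and freely fed ones on the right; open diamonds are sham AL replicates 2 and 4 and bars are means. Heat shock means were lower in the fasted group (Hsph1 15.1 against 32.1 FPKM), the Hspb1 groups overlap, and Cirbp was higher (52.3 against 23.7 FPKM).

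Metabolic calls were spread over several pathways, and most were lost without sham AL replicates 2 and 4. Inmt, which methylates indoleamines such as tryptamine, had 38.2, 20.8 and 23.9 FPKM in sham IF and 9.82, 13.5, 8.65 and 9.41 FPKM in sham AL, a log2 difference of 1.30 ± 0.21 (adjusted p = 2.61e-05 in limma). Its groups did not overlap, and without sham AL replicates 2 and 4 the difference was 1.44. Of 15 FoxO and insulin response genes, 10 lay below 0 with all 7 libraries, and the list medians were -0.13 and -0.01 in the 2 fits. With all 7 libraries 2 were called higher and 1 lower (20%, against 9.05% of all genes), and 2 rose in both fits. These were Txnip, which restrains glucose uptake, at 116 ± 7.10 FPKM in sham IF and 76.4 ± 3.17 FPKM in sham AL (0.60, adjusted p = 0.000314), and Pik3ip1, an inhibitor of phosphoinositide 3-kinase, at 17.5 ± 0.510 FPKM in sham IF and 11.02 ± 1.43 FPKM in sham AL (0.63, adjusted p = 0.00246). Sesn3, which rises with FoxO activity, fell with all 7 libraries only (-0.41, adjusted p = 0.00264). Dgat2, which makes triglycerides, had 4.20, 5.28 and 6.96 FPKM in sham IF and 2.59, 2.47, 2.46 and 2.50 FPKM in sham AL (0.86, adjusted p = 0.00174), and its call ended without sham IF replicate 3 (adjusted p = 0.0531).

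Of 28 fatty acid oxidation genes and PPAR targets, 3 rose and 1 fell with all 7 libraries, with a list median of 0.16, and 1 rose without sham AL replicates 2 and 4. That gene was Acaa2, a thiolase of mitochondrial fatty acid oxidation, at 63.8 ± 3.70 FPKM in sham IF and 45.2 ± 3.83 FPKM in sham AL (log2 difference 0.49, adjusted p = 0.000191 in limma). The fasting markers Pdk4 (0.31, adjusted p = 0.392) and Cpt1a (0.05, adjusted p = 0.736) did not pass. Of 21 cholesterol synthesis genes, 4 fell and none rose (19.0% called, against 9.05% of all genes), with a median of -0.25, and 1 fell without sham AL replicates 2 and 4. Cyp51, the sterol demethylase, had 8.32, 7.46 and 8.53 FPKM in sham IF and 12.8, 12.2, 14.7 and 11.2 FPKM in sham AL (-0.58, adjusted p = 0.00496). Hmgcs1, Stard4 and Srebf2 were called with all 7 libraries only, as were 4 of 14 fatty acid synthesis genes (28.6%), Fasn, Elovl6, Acly and Scd2. The fatty acid synthesis list had a median of -0.19 with all 7 libraries and -0.07 without sham AL replicates 2 and 4.

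Further protein-coding genes differed in both fits. Higher in fasted arteries were Tspan4, a tetraspanin, at 46.2 ± 4.24 FPKM in sham IF and 24.8 ± 5.65 FPKM in sham AL (log2 difference 0.89, adjusted p = 3.92e-06 in limma), and H1fx, a linker histone, at 6.83 ± 1.63 FPKM in sham IF and 2.71 ± 0.876 FPKM in sham AL (1.08, adjusted p = 1.86e-05). Haus1, a subunit of the augmin complex of the spindle (0.86), Smim5 (0.91) and Ccdc85b (0.83) were higher as well. Lower were Tnfrsf25, the death receptor DR3 (-0.87), Zmym1 (-0.90) and Rgs16, which shortens G protein signals (-0.84). These 8 genes were named by a rule that required a call in both fits and no overlap between groups, so neither property is added support. Their adjusted p in limma was 0.0229 or less with all 7 libraries. Of the 8, only Rgs16 lost its call when a single library was left out (without sham IF replicate 2 or 3 or sham AL replicate 3, highest adjusted p = 0.174). A pair of oxygen-sensitive genes called in both fits moved in opposite directions, P4ha1, a collagen prolyl hydroxylase (-0.68, adjusted p = 0.00273), and Pdk1, a pyruvate dehydrogenase kinase (0.38, adjusted p = 0.0198). They were the only calls among 19 hypoxia response genes, and Pdk1 lost its call without any of 4 single libraries.

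Calls in further stress and nutrient lists were mostly lost without sham AL replicates 2 and 4. Of 17 Nrf2 antioxidant genes 3 rose with all 7 libraries (17.6%, against 9.05% of all genes) and 1 without sham AL replicates 2 and 4, Osgin1, an oxidative stress induced growth inhibitor (0.76, adjusted p = 0.00200 in limma), whose call ended without sham IF replicate 3. Of 19 autophagy and lysosome genes 3 rose (15.8%), and of 21 immediate early genes 3 fell (14.3%), with 0 of either called without sham AL replicates 2 and 4. The 14 glycolysis genes and the 12 sirtuin and NAD synthesis genes gave 0 calls in either fit.

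Ribosomal protein and respiratory chain genes were called in numbers only while sham AL replicates 2 and 4 were in the comparison. Of 83 cytosolic ribosomal protein genes, 36 were higher in sham IF (43.4%, against 4.79% of all genes) and none lower, with a median of 0.34. Without the 2 libraries 0 of the 83 were called, with a median of 0.19, where 1.96% of all genes were called. Of 78 nuclear genes of oxidative phosphorylation, 26 were higher (33.3%) and none lower, with a median of 0.29. Without the 2 libraries 0 of the 78 were called, with a median of 0.09. In the 7 libraries, the summed ribosomal protein level was 22410.5, 31379 and 33248 FPKM in sham IF and 29411, 24459, 19886 and 15313 FPKM in sham AL. Sham AL replicate 4 was lowest and replicate 1 lay inside the fasted range. Leaving out 1 library moved the ribosomal count between 0 (without sham IF replicate 3) and 66 (without sham IF replicate 1 or sham AL replicate 1), and it was 2 without sham AL replicate 4. The same omissions moved the oxidative phosphorylation count between 0 and 64. Over all genes the count was 265 without sham IF replicate 3, 2997 without sham IF replicate 1 and 574 without sham AL replicate 4. In the mean of the other 4 days, 1 ribosomal protein gene was higher and 3 lower. The 13 protein genes of the mitochondrial genome gave no call in either fit. The share of fragments in short genes and the number of genes detected differed between these libraries as given above, and their part in these calls was not tested.

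**Figure D4:**
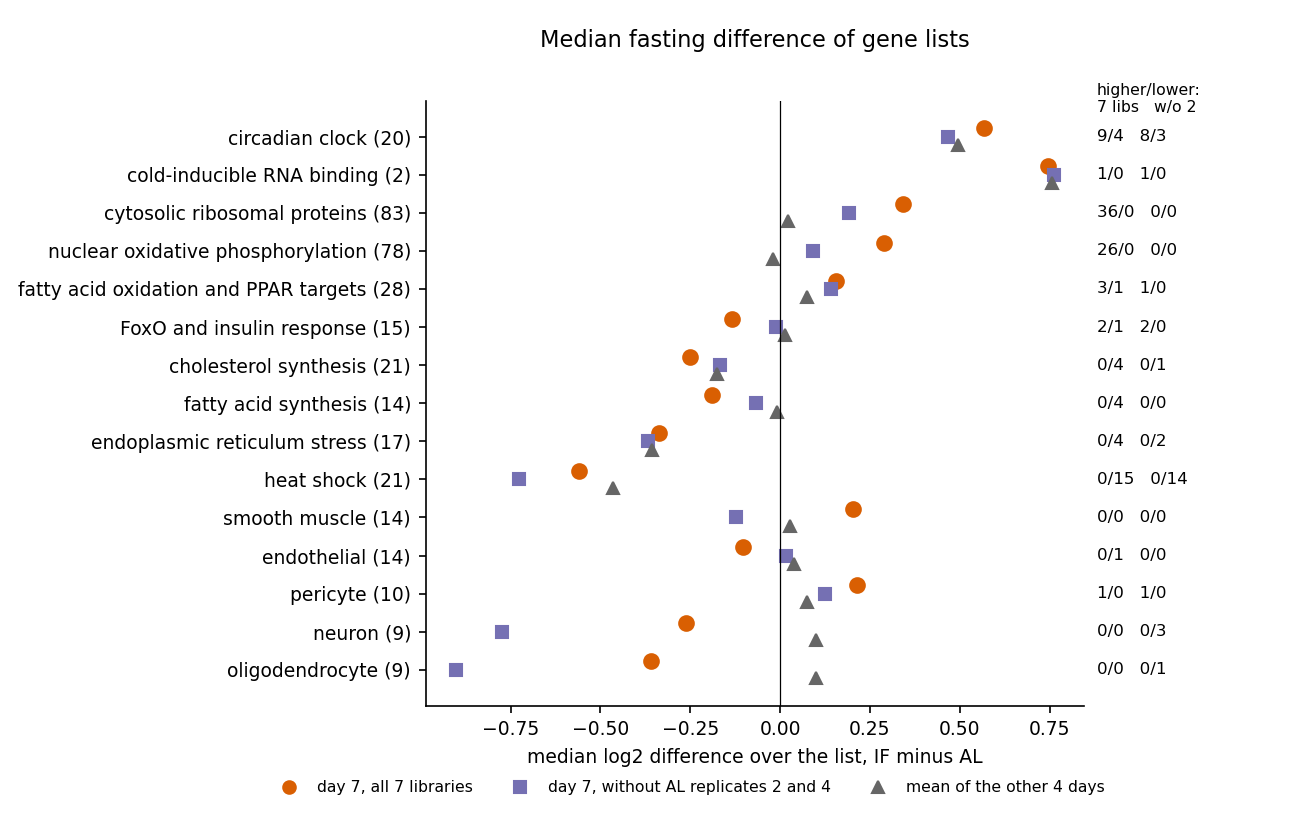
Median log2 difference (sham IF minus sham AL) of 15 gene lists, each with its number of genes tested, on day 7 with all 7 libraries (circles), on day 7 without sham AL replicates 2 and 4 (squares) and as the mean of the other 4 days (triangles); the figures on the right are the members called higher and lower in the first 2. The heat shock median stayed below -0.4 and the clock median above 0.4 in all 3, while the ribosomal protein median was 0.34, 0.19 and 0.02.

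Few genes of the artery wall itself were called. The 14 smooth muscle markers gave no call in either fit. The largest difference among them was that of Myocd, at -0.49 with all 7 libraries (adjusted p = 0.0522 in limma). It was -0.44 without sham AL replicates 2 and 4 (adjusted p = 0.262), and Myocd was called lower as the mean of the other 4 days (-0.30, adjusted p = 0.00448). Acta2, smooth muscle actin, had 3073, 4645 and 4864 FPKM in sham IF and 4607, 4543, 4956 and 1757 FPKM in sham AL, and Myh11, smooth muscle myosin, had 254, 362 and 370 FPKM in sham IF and 364, 375, 356 and 147 FPKM in sham AL. Both genes were lowest in sham AL replicate 4, and the sign of the list's median turned from 0.20 with all 7 libraries to -0.12 without replicates 2 and 4. Of 14 endothelial markers, 1 fell with all 7 libraries only, the VEGF receptor Flt1, at 11.8, 11.6 and 11.1 FPKM in sham IF and 14.2, 14.1, 15.0 and 25.1 FPKM in sham AL (-0.50, adjusted p = 0.0114 in limma). Its call ended without sham AL replicate 4 or sham IF replicate 3. Of 10 pericyte markers, Vtn, the matrix glycoprotein vitronectin, was higher in both fits, at 1987 ± 156 FPKM in sham IF and 1654 ± 109 FPKM in sham AL (0.26, adjusted p = 0.0128), and its call ended without sham IF replicate 3 (adjusted p = 0.150). Among 20 vasoactive genes 1 was called with all 7 libraries, the kinase of nitric oxide signalling Prkg1, at under 1.5 FPKM in every library, and 0 without replicates 2 and 4. The 21 matrix and elastic fibre genes gave 1 call with all 7 libraries, the crosslinking enzyme Lox (-0.47, adjusted p = 0.0224), and 0 without replicates 2 and 4.

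Markers of other cells an artery sample can carry gave few calls, but the levels of several lists varied widely between libraries. Of 9 neuronal markers 0 were called with all 7 libraries and 3 fell without sham AL replicates 2 and 4, the neurofilament genes Nefl (-1.41, adjusted p = 0.00908 in limma), Nefh (-1.02, adjusted p = 0.0112) and Nefm (-0.77, adjusted p = 0.0250). Nefl had 1.45, 0.411 and 0.525 FPKM in sham IF and 2.54, 0.816, 5.04 and 1.27 FPKM in sham AL, so the groups overlapped and sham AL replicate 3 was highest. The oligodendrocyte gene Hapln2 behaved alike, with 0.703, 0.418 and 1.18 FPKM in sham IF and 1.39, 0.784, 3.43 and 0.878 FPKM in sham AL. The summed oligodendrocyte level was 127 to 192 FPKM in sham IF and 126 to 273 FPKM in sham AL. The 5 red blood cell genes summed to 124 to 156 FPKM in sham IF and 34.6 to 493 FPKM in sham AL, and none was called, with a median log2 difference of -0.43 with all 7 libraries and -0.95 without sham AL replicates 2 and 4. The oligodendrocyte medians were -0.36 and -0.90, and the neuronal ones -0.26 and -0.77. Neutrophil markers ran the other way, with medians of 0.63 and 0.88 and sums of 44.0, 112.8 and 90.5 FPKM in sham IF and 15.6, 80.5, 60.5 and 29.1 FPKM in sham AL, and 0 of 7 were called. Pituitary markers summed to 406, 12.1 and 307 FPKM in sham IF and 112, 1037, 83.3 and 33.2 FPKM in sham AL, with 0 of 5 called. Of 8 microglial markers Tmem119 was higher (0.36, adjusted p = 0.0145 in limma) and Sall1 lower (-0.48, adjusted p = 0.0163), and of 5 Schwann cell markers Pmp22 was higher (0.28, adjusted p = 0.00579), all with all 7 libraries only. The interferon response genes Ifit3 and Ifi27l2a were called higher with all 7 libraries only (15.4% of the list, against 9.05% of all genes). All 13 genes of that list lay above 0 in that fit with a median of 0.53. The median was 0.54 without sham AL replicates 2 and 4 and -0.06 as the mean of the other 4 days. The list summed to 642, 902 and 609 FPKM in sham IF and 438 to 514 FPKM in sham AL. The part of these cells in the gene differences above was not tested.

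Malat1, a long noncoding RNA of nuclear speckles, had the smallest adjusted p of the comparison. It and the other noncoding genes here lie outside the rule for named genes and were chosen after their values were seen. Malat1 had 24.1, 17.9 and 17.7 FPKM in sham IF and 48.2, 82.2, 67.3 and 79.9 FPKM in sham AL, a log2 difference of -1.74 ± 0.18 (adjusted p = 7.58e-10 in limma; 5.2e-06 without sham AL replicates 2 and 4). All 4 sham AL libraries of day 7 exceeded the highest of the 71 other libraries of the series, 44.2 FPKM, while the 3 sham IF libraries lay within their range of 13.4 to 44.2 FPKM. In sham on the other 4 days Malat1 was 20.9 ± 7.48 FPKM in IF and 23.0 ± 7.25 FPKM in AL (SD, n = 16 each). Neat1, the long noncoding RNA of paraspeckles encoded beside Malat1 on chromosome 19, was 34.3 ± 2.46 FPKM in sham IF and 28.9 ± 1.93 FPKM in sham AL on day 7 (0.24, adjusted p = 0.120).

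**Figure D5:**
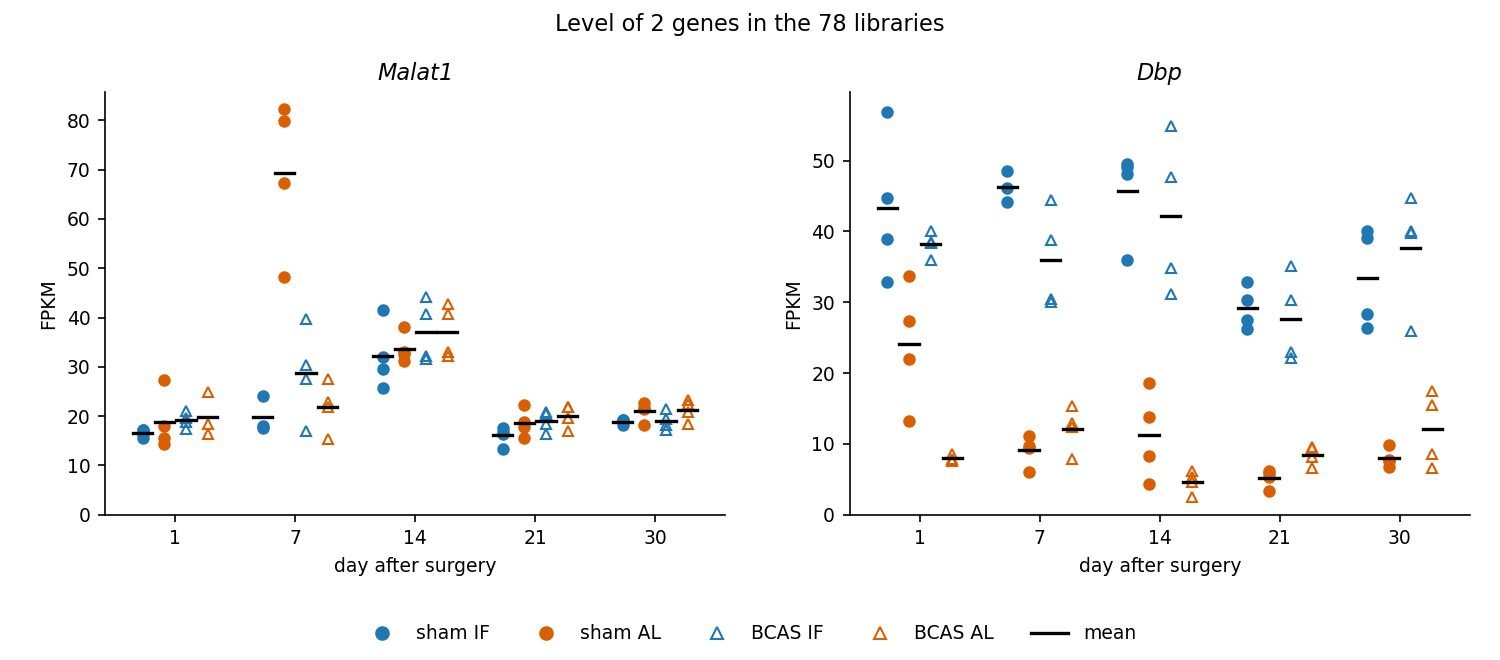
FPKM of Malat1 and Dbp in all 78 libraries by day after surgery (sham, filled circles; BCAS, open triangles; IF blue, AL orange; bars are means of 3 or 4 libraries). Malat1 was high in sham AL on day 7 (48.2 to 82.2 FPKM) and not above 44.2 FPKM elsewhere, while Dbp was higher in IF than in AL on average on each day.

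Ribosomal RNA and its neighbours shifted in the same direction. CT010467.1, annotated as ribosomal RNA, had 54.4, 63.1 and 37.7 FPKM in sham IF and 213, 1335, 186 and 1187 FPKM in sham AL, with sham AL replicates 2 and 4 far above replicates 1 and 3. Its log2 difference was -3.28 with all 7 libraries (adjusted p = 0.000108 in limma) and -1.95 without the 2 (adjusted p = 0.0646). Gm26917, next to it on chromosome 17, was called in both fits (-1.68 and -1.09, adjusted p = 0.0182 in the second). Lars2, the mitochondrial leucyl tRNA synthetase, showed the same profile, at 3.72, 4.66 and 3.26 FPKM in sham IF and 12.6, 66.0, 11.7 and 41.7 FPKM in sham AL, with differences of -2.45 (adjusted p = 2.61e-05) and -1.44 (adjusted p = 0.0369). Rn7sk, the 7SK RNA that restrains transcription elongation, had 2.66, 6.99 and 1.97 FPKM in sham IF and 13.03, 198, 11.2 and 343 FPKM in sham AL, with an adjusted p of 0.00150 with all 7 libraries and 0.315 without replicates 2 and 4. Sham AL replicates 2 and 4, which had the largest share of fragments in short genes, were the highest of the 7 libraries in each of these 4 genes. The profile was not particular to them: BCAS AL replicate 2 of day 1 had 1140 FPKM of CT010467.1, 55.0 FPKM of Lars2, 70.3 FPKM of Gm26917 and 54.6 FPKM of Rn7sk. The part of that share in the differences was not tested. The mitochondrial ribosomal RNAs mt-Rnr1 (610 ± 44.9 FPKM in sham IF, 1082 ± 263 FPKM in sham AL) and mt-Rnr2 (349 ± 44.3 FPKM in sham IF, 666 ± 140 FPKM in sham AL) fell in both fits, by 0.80 and 0.92 with all 7 libraries. Unlike CT010467.1 (-0.12, adjusted p = 0.806 in limma), these 2 were also called lower as the mean of the other 4 days, with a median of -0.44.

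The protein-coding genes with the largest differences that only 1 of the fits called were Oxt, Ciart, Tcap, Lsm5 and Hspb7 (higher) and Gm10800, Gm21738, Gm6685, Asb4 and Sele (lower) with all 7 libraries. Oxt, the oxytocin precursor made by hypothalamic neurons, had 52.6, 23.3 and 20.6 FPKM in sham IF and 3.17, 1.31, 15.9 and 4.90 FPKM in sham AL, and its call (adjusted p = 0.0394 in limma) ended without any of 6 single libraries. Lsm5, a subunit of a ring that binds spliceosomal RNA, had 9.03, 9.52 and 11.3 FPKM in sham IF and 7.73, 0.567, 12.2 and 0.464 FPKM in sham AL, so that its difference came from sham AL replicates 2 and 4. Gm10800 had 2850 FPKM in sham AL replicate 4, against 0.445 to 22.2 FPKM in the other 6 libraries. Asb4, a ubiquitin ligase subunit whose call also ended without sham IF replicate 3, had 3.00, 3.53 and 2.98 FPKM in sham IF and 6.24, 6.65, 5.84 and 6.90 FPKM in sham AL. Its groups stood well apart, and its adjusted p was 0.00723 with all 7 libraries and 0.0911 without replicates 2 and 4. Tcap and Hspb7, a sarcomere cap protein and a small heat shock protein of muscle, had adjusted p values of 0.0803 and 0.0776 in that second fit. Among those called without the 2 libraries only, the neurofilament genes fell and Folh1 (0.76, adjusted p = 0.0323), Ranbp3l (0.65, adjusted p = 0.0317) and Eif2ak2, the double-stranded RNA kinase (0.65, adjusted p = 0.0250), rose, with overlapping groups in each.

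The fasting difference was also measured in sham on the other 4 days, in 32 libraries that share none with day 7. As the mean of those days, 2602 genes differed (16.6%). Of the 233 genes called in both day 7 fits, 225 (96.6%) had the same sign there and 172 (73.8%) were also called in that direction, with 0 called in the opposite one. Of the 1189 genes called on day 7 only while sham AL replicates 2 and 4 were included, 85.3% had the same sign and 35.7% were called in it. Over all genes tested these shares were 64.6% and 14.5%. The clock and heat shock genes were among those shared. Dbp differed by 2.26 on day 7 and by 1.80 as the mean of the other days, Nfil3 by -1.67 and -1.56, Hsph1 by -1.02 and -1.004, Cirbp by 1.09 and 0.95, and Inmt by 1.30 and 1.51. On the other days 14 clock genes were higher and 4 lower, and 21 of 21 heat shock genes were lower.

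A direct test of day 7 against the mean of the other 4 days found 11 genes (0.07%), 5 with a higher and 6 with a lower difference, and 2206 at an unadjusted p under 0.05. Malat1 led, with day 7 minus the other days at -1.60 ± 0.20 (adjusted p = 3.99e-07 in limma; 0.000452 without sham AL replicates 2 and 4). Lars2 (-2.24, adjusted p = 0.0138), CT010467.1 (-3.16, adjusted p = 0.0138), Gm26917 (-1.44, adjusted p = 0.0175) and the microRNA gene Mir7240 (1.23, adjusted p = 0.0175) came next, and none of these 4 was called without sham AL replicates 2 and 4. Mir7240, 58 bases long, had 3.38, 0 and 2.41 FPKM in sham IF and 0 in every sham AL library, so its groups overlapped. The smaller ones were Arpc3, Cbfa2t2, Lrpap1, Phlpp2, Cst3 and Ypel5, none called without the 2 libraries. Lrpap1, a chaperone for lipoprotein receptors, was the tightest, at 52.1, 48.3 and 49.97 FPKM in sham IF and 40.6, 40.5, 38.3 and 40.1 FPKM in sham AL. Without the 2 libraries 4 genes were called, Malat1 and the short noncoding genes Gm22981, Gm44360 and Mir217, each of these 3 at 0 in at least 2 of the 3 sham IF libraries and in sham AL replicates 2 and 4. The count was 845 without sham IF replicate 1, 841 without sham AL replicate 1, 105 without sham AL replicate 3 and 2 without sham IF replicate 3, so it depended on single libraries.

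The day 7 difference in sham was tested against that in BCAS, where 4 fasted and 4 freely fed libraries were compared and 354 genes were called. The sham and BCAS differences themselves differed in 5 genes (0.0318%), all lower in sham, with 1837 at an unadjusted p under 0.05, and in 4 genes without sham AL replicates 2 and 4, again Malat1, Gm22981, Gm44360 and Mir217. Malat1 had the smallest adjusted p (-2.07 ± 0.24, 8.11e-08 in limma; 1.93e-05 without the 2 libraries), with 28.7 ± 9.33 FPKM in BCAS IF and 21.96 ± 5.01 FPKM in BCAS AL on day 7. Myc, a growth-promoting transcription factor, had 2.38, 1.75 and 0.945 FPKM in sham IF and 2.33, 2.50, 3.15 and 2.68 FPKM in sham AL, against 3.04 ± 0.600 FPKM in BCAS IF and 1.92 ± 0.272 FPKM in BCAS AL, a sham minus BCAS difference of -0.94 (adjusted p = 0.0237). Cdc73 (-0.39, adjusted p = 0.0186), Dync1li2 (-0.42, adjusted p = 0.0464) and CT010467.1 (-3.55, adjusted p = 0.0479) were the others. None of Myc, Cdc73, Dync1li2 and CT010467.1 passed without sham AL replicates 2 and 4. The count was 1 without sham AL replicate 2 or 4, 17 without sham AL replicate 3, 233 without sham IF replicate 1 and 312 without sham AL replicate 1.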

How the data were processed

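RNA-seq of total RNA from cerebral arteries was deposited by the authors as FPKM values per gene, in 1 table of 78 libraries; the aligner and counter are not given in the sources used here, while the submitters' processing notes name DESeq 1.10.1 without a role. Gene coordinates in the table matched GRCm38. Median-of-ratios size factors computed on the FPKM columns lay between 0.9995 and 1.0003, so the values were already scaled to a like median. Multiplying FPKM by gene length recovered whole fragments (tolerance 0.05, 100% of values), which gave the fragments per library (14601572 to 25944175); 1 FPKM at 1 kb stood for 15.1 to 22.9 fragments in the day 7 sham libraries.

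The 15707 genes that reached 1 FPKM in 3 or more libraries were tested on log2(FPKM + 1) with limma 3.58.1 (trend, robust; R 4.3.3), with 20 group means, two-sided, and Benjamini-Hochberg adjustment over all genes tested. Differences are sham IF minus sham AL. An exact permutation test of 3 against 4 libraries cannot go below 0.0571, so none is given. Nothing says that libraries came from separate animals, so p-values measure only the spread between libraries. On simulated data of 15187 genes, 93 of 100 genes changed by 1 on the log2 scale and 65 of 100 changed by 0.5 were recovered, with 12 false calls. These figures hold for the simulated data only. In the real data, leaving out a single library moved the count of called genes between 265 and 2997. The simulation did not measure how many of the real calls were false.

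Named genes were protein-coding, called in both fits without overlap (the 12 largest each way), the 5 largest each way called in 1 fit only, and leading list members. The members and lists were chosen with earlier results of these data known. Alternatives were other filters, pseudocounts, scalings, limma-voom on recovered fragments, a fit of the 7 libraries alone, and leaving out libraries; 2 of them were chosen after seeing the data.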

Additional observations from a re-analysis of the deposited data

Results flagged for a closer look

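Sham AL replicate 4 on day 7 stood apart from the other 3 sham AL libraries by Dixon's test at the 95% level in 8 of 150 groups of values looked at, and replicate 2 in 1, where chance flags about 1 in 20. Replicate 4 had 1757 FPKM of Acta2, 147 FPKM of Myh11, 25.1 FPKM of Flt1, 22.1 FPKM of Acly, 2850 FPKM of Gm10800 and 93.8 FPKM of Gm21738. The mean log2(FPKM + 1) of its smooth muscle genes was 5.95, and it had 13449 genes with at least 1 FPKM. In replicate 2 the mean log2(FPKM + 1) of the pituitary markers was 5.30.

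The fasting difference of day 7 in sham differed from the mean of the other 4 days, by the test of that difference in limma, in Malat1 (-1.60), Lars2 (-2.24), CT010467.1 (-3.16), Gm26917 (-1.44), Mir7240 (1.23), Arpc3 (0.45), Cst3 (0.45), Cbfa2t2 (-0.41), Phlpp2 (-0.39), Ypel5 (0.32) and Lrpap1 (0.26), all on the log2 scale. It differed from that of BCAS on day 7 in Malat1 (-2.07), CT010467.1 (-3.55), Myc (-0.94), Dync1li2 (-0.42) and Cdc73 (-0.39). Of these, Malat1 alone kept an adjusted p under 0.05 in both tests without sham AL replicates 2 and 4.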

How the results depend on the processing

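Without sham AL replicates 2 and 4 the day 7 count was 308 (133 higher, 175 lower), with 4 genes differing from the other days, and with BCAS AL day 1 replicate 2 also left out it was 296 (128 higher, 168 lower), again with 4. A fit of the 7 libraries alone called 1 gene (1 higher, 0 lower), and 0 both with and without those 2 libraries; without them it called 1 (0 higher, 1 lower). With no filter on low values 41 genes differed from the other days and 19 from BCAS, and with a mean of at least 5 FPKM 3 differed from BCAS. Scaling without short and mitochondrial genes gave 1121 lower genes and 12 that differed from BCAS, and shifted the median of all genes by -0.045. Limma-voom gave 398 higher genes and 18 that differed from BCAS; without the 2 libraries, an alternative chosen after seeing the data like the last fit of the 7, it gave 392 (88 higher, 304 lower) and 4 that differed from the other days. The cause of these shifts was not tested. Leaving out 1 library gave 265 to 2997 genes (131 to 1614 higher, 134 to 1383 lower), 31 to 470 called in both fits, 2 to 845 that differed from the other days and 1 to 312 that differed from BCAS. Of 115 named genes, 1 that was called with all 7 libraries changed sign: Lsm5 was -0.026 under limma-voom without the 2 libraries (adjusted p = 0.982). The result was weaker for 92 of the 115 in the fit of the 7 libraries alone and for 40 without sham IF replicate 3. Without sham AL replicates 2 and 4 it was weaker for 36 and stronger for 8. No paired analysis was possible because the labels give the libraries of the compared groups no shared replicate numbers. At 1 FPKM a 1 kb gene rests on 15.1 to 22.9 fragments.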
